A study of Macaca fascicularis with 16 samples.

Results

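The structural genes of the motile cilium were followed in endometrium of postmenopausal cynomolgus macaques given estradiol, tamoxifen or both. They were taken as all genes whose single symbol in the array's annotation begins with DNAH (axonemal dynein heavy chains), DNAI (dynein intermediate chains), RSPH (radial spoke proteins), TEKT (tektins), CFAP (cilia and flagella associated proteins) or IFT (intraflagellar transport) followed by a digit. This gave 70 of the 14132 genes with a single symbol on the array: 10 DNAH, 4 DNAI, 5 RSPH, 3 TEKT, 34 CFAP and 14 IFT genes. Each gene was read from its probe set with the highest mean over the 16 arrays, and 30 of the 70 genes have more than 1 probe set.

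A motile cilium is built on an axoneme of microtubule doublets around a central pair. Outer and inner dynein arms drive the beat, radial spokes and the central apparatus regulate it, and tektins and other proteins bound inside the microtubules stiffen the doublets. Intraflagellar transport carries parts along all cilia, also the immotile primary cilium that most stromal cells bear, whereas the other families serve mainly multiciliated cells, which in the endometrium lie scattered in the luminal and glandular epithelium. Estrogen is known to favour ciliated cells in the reproductive tract.

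The 16 female animals were postmenopausal and had been randomized to 4 arms of 4 that were treated in parallel, each animal with its own array of total endometrial RNA after 4 months. The arms were a placebo arm (control), micronized estradiol at 0.25 mg per 1800 kcal, tamoxifen, a selective estrogen receptor modulator, at 20 mg per 1800 kcal, and both drugs at those doses (combination). The labels give neither the animals' ages nor how the menopausal state arose. Arrays are named here by arm and label number, such as tamoxifen 1. The labels state no order and no pairing across arms for the numbers.

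The values are scaled microarray signals, taken as log2(signal + 4.80) and called log2 signal below. A change is a difference of arm means on that scale, which understates the fold of dim genes. SE is its standard error, and p is limma's, adjusted by the Benjamini-Hochberg method over all 31660 probe sets tested, with 0.05 as the threshold. Genes "called" passed that threshold. Probe sets in the lowest 40% of mean signal were left out of the tests, which kept 46 of the 70 cilium genes: all 14 IFT genes, 20 of 34 CFAP, 5 of 10 DNAH, 3 of 4 DNAI, 2 of 5 RSPH and 2 of 3 TEKT genes. The other 24 are called dim here and are described without a test. The values of any 1 gene are set only against its own values on other arrays.

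All arrays had a trimmed mean signal of 250.0, and within an arm the arrays correlated at 0.908 to 0.971 over the 31660 probe sets tested. The endometrial markers ESR1 (signals of 242 to 642), PGR (373 to 1796) and HOXA11 (1646 to 3605) were measured on every array. In a median deviation from the genes' own means, smooth muscle markers stood at -3.80 on estradiol 4 and -0.82 on tamoxifen 1, and between -0.06 and 0.61 on the other arrays. The actin 3′ to 5′ log2 signal ratio, a sign of RNA length, was 0.92 ± 0.11 (SD, n = 4) in the controls against 0.57 ± 0.18, 0.52 ± 0.043 and 0.55 ± 0.075 with estradiol, tamoxifen and the combination. The estradiol arm overlapped the controls through estradiol 4 (0.83 against 0.76 on control 4), and the other arms did not. Its part in the changes against control was not tested.

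The median level of the 56 genes outside the IFT family varied between animals of the same arm. As this grouping was made after the families' values had been seen, it is given as a description. Not every gene followed the median. CFAP97 read 8.78 on tamoxifen 1 against 9.21 and 9.22 on tamoxifen 2 and 3, and the dim CFAP97D1 was lowest of its arm on estradiol 2 (3.00). The bright CFAP36 and CFAP20 varied little within arms (SD 0.129 and 0.161). The median deviation of these 56 genes from their own means was -0.26, -0.24, -0.17 and -0.07 on controls 1 to 4, and -0.22, 0.39, -0.36 and 0.07 on estradiol 1 to 4. It was 0.66, -0.23, -0.17 and 0.25 on tamoxifen 1 to 4, and 0.12, 0.23, 0.22 and 0.36 on combination 1 to 4. All 4 combination arrays thus lay above all 4 controls, while the estradiol and tamoxifen arms each held arrays at the control level beside 1 or more well above it. The median of the 14 IFT genes stayed between -0.19 and 0.26 on all arrays. It was 0.26, -0.15, -0.19 and 0.14 on tamoxifen 1 to 4, with tamoxifen 1 and 4 above tamoxifen 2 and 3 as for the 56 genes. In bulk tissue, fewer cells of a type and less RNA per cell cannot be told apart.

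**Figure D1:**
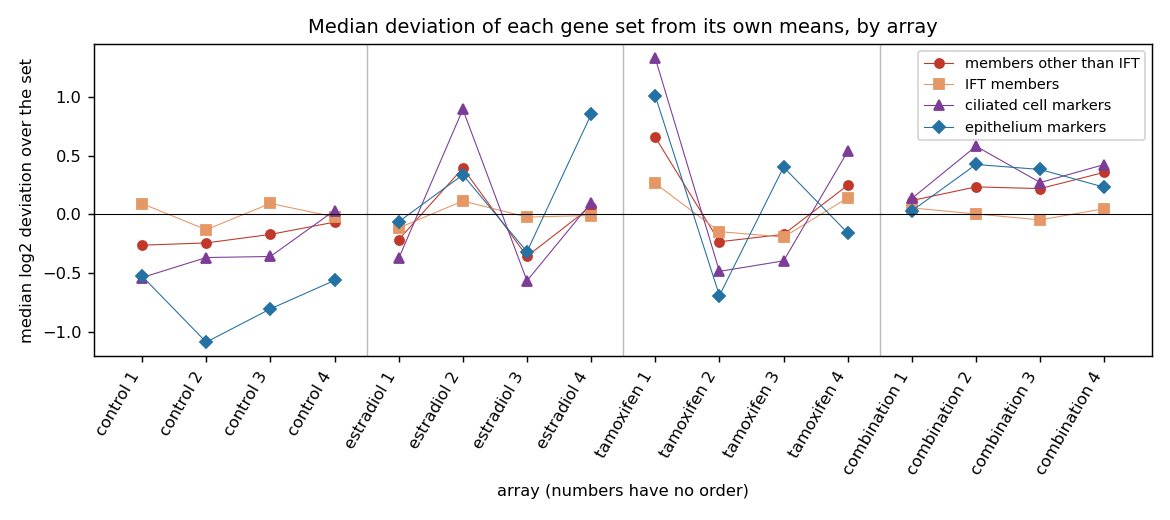
Median deviation of log2 signal from each gene's own mean over 16 arrays, for each array in its arm, for 4 gene sets: the 56 cilium genes outside the IFT family (circles), the 14 IFT genes (squares), ciliated cell markers (triangles) and epithelium markers (diamonds); lines only join the arrays of an arm. The circles stand at 0.66 on tamoxifen 1 and 0.39 on estradiol 2, and between 0.12 and 0.36 on the 4 combination arrays, while the squares stay between -0.19 and 0.26.

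The 2 arrays that led their arms did so for most of these genes. Tamoxifen 1 also differed from the rest of its arm in other markers. Secretory epithelium was at 1.42, the highest of the 16 arrays. Smooth muscle (-0.82), leukocytes (-0.43) and endothelium (-0.32) were the lowest of the tamoxifen arm, but estradiol 4 was lower in each. Endothelium also stood at -0.34 on estradiol 2. The residuals of tamoxifen 1 correlated at 0.508 with those of estradiol 4. The part of this in the cilium values of tamoxifen 1 was not tested. Within the tamoxifen arm, tamoxifen 1 was the highest array for 39 of the 56 genes (69.6%), where it was highest for 34.0% of all genes. Within the estradiol arm, estradiol 2 was highest for 33 of the 56 (58.9%, against 21.5% of all genes). Combination 4 was the highest of its arm for 25 of the 56 (44.6%, against 28.8% of all genes). Over all 16 arrays, 27 of the 56 genes had their highest value on tamoxifen 1 and 7 on estradiol 2, compared with 3 and 0 of the 14 IFT genes.

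The spread between animals of an arm followed the same division. The median SD of the 56 genes was 0.331 in the control arm, 0.534 with estradiol, 0.562 with tamoxifen and 0.290 with the combination. Over all genes it was 0.243, 0.267, 0.261 and 0.213, and over the 14 IFT genes 0.130, 0.188, 0.261 and 0.131. Since dim genes are noisier, the 32 of the 56 that were kept for testing were set against the kept genes alone. Their median SD was 0.260, 0.482, 0.539 and 0.269 in the 4 arms, against 0.208, 0.230, 0.219 and 0.176 for all kept genes. Over the 70 genes, the residual SD within arms was highest for CFAP126 (1.32) and lowest for IFT20 (0.099).

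**Figure D2:**
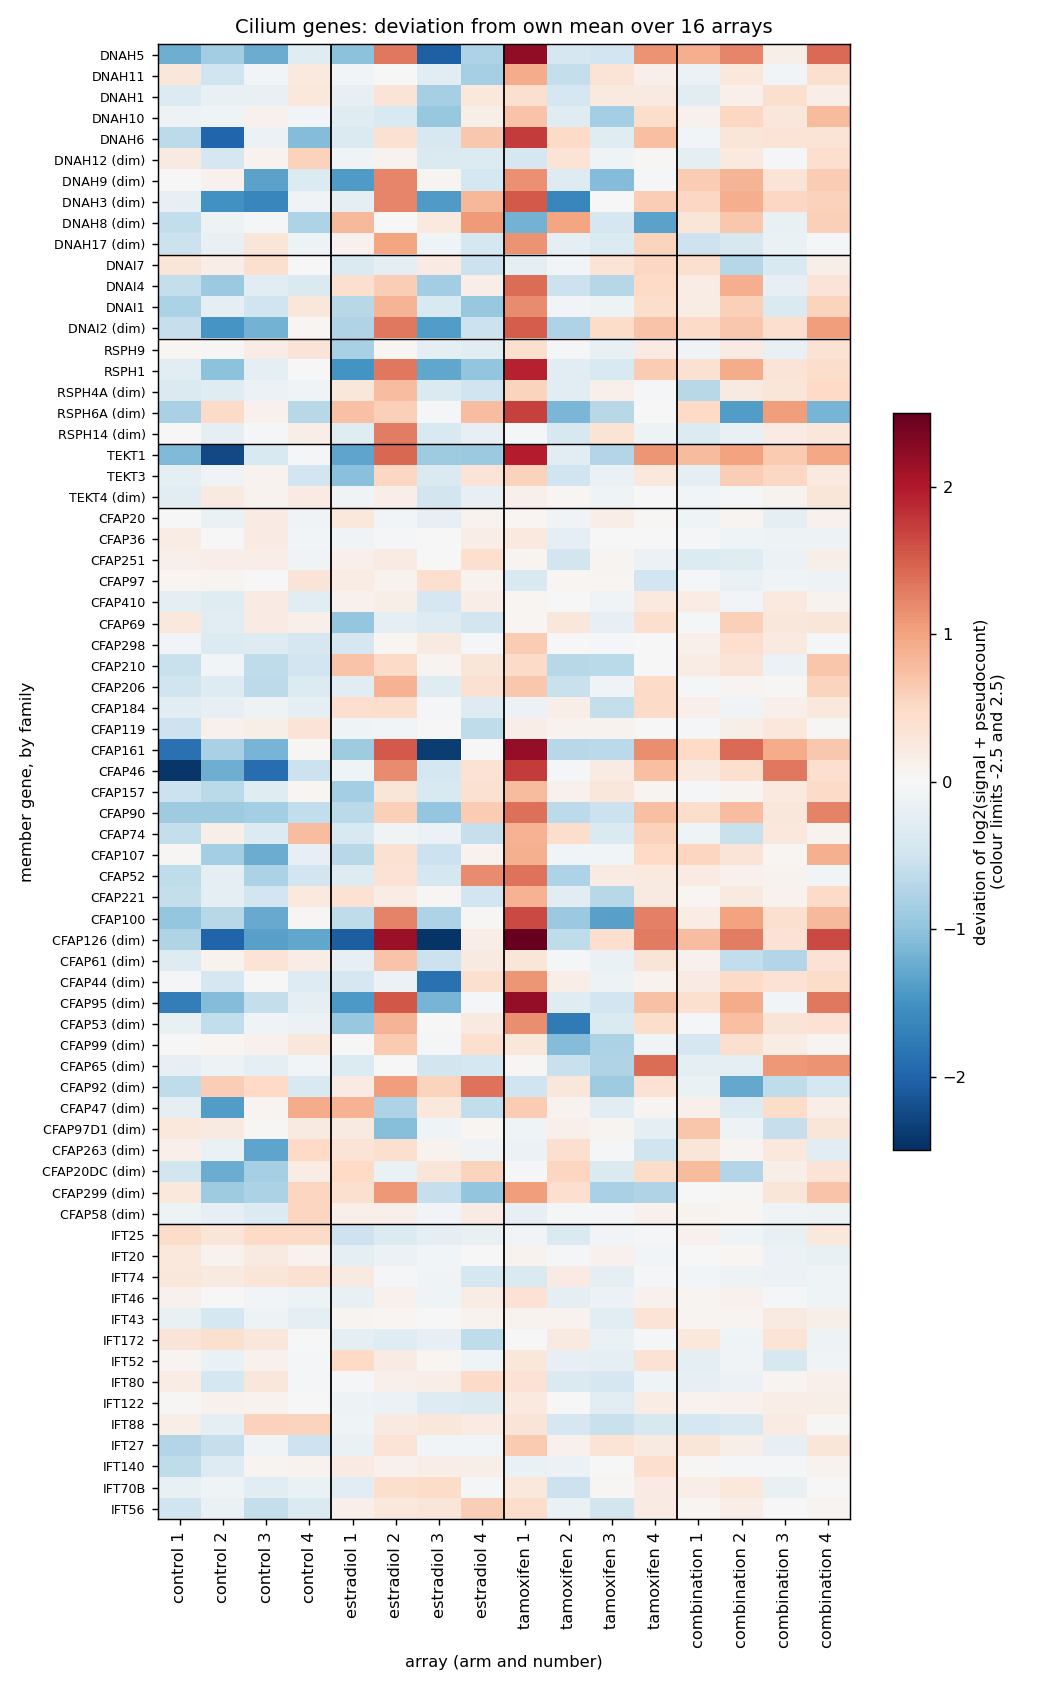
Deviation of log2 signal from each gene's own mean (colour; red above, blue below) for the 70 cilium genes (one per line, grouped by family and ordered by mean signal within it; dim genes are marked) on the 16 arrays (columns, arms divided by lines). Red runs down the tamoxifen 1 and estradiol 2 columns through most families and thins out in the IFT block, and the 4 combination columns are more alike than those of the estradiol or tamoxifen arm.

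The dynein heavy chains showed the division most plainly in DNAH5, the heavy chain of the outer dynein arm. Its log2 signal was 4.83, 5.18, 4.81 and 5.75 on controls 1 to 4, and 5.02, 7.37, 4.00 and 5.27 on estradiol 1 to 4. It was 8.26, 5.62, 5.57 and 7.17 on tamoxifen 1 to 4, and 6.95, 7.26, 6.18 and 7.46 on combination 1 to 4. Only estradiol 2 exceeded the controls in the estradiol arm, 2 tamoxifen arrays did so in theirs, and every combination array lay above every control. The changes against control were 0.28 (SE 0.65, adjusted p = 0.796) with estradiol, 1.52 (SE 0.65, adjusted p = 0.133) with tamoxifen and 1.82 (SE 0.65, adjusted p = 0.0679) with the combination, and none passed the threshold. Its 2 other probe sets were dim; they differed from control by 1.33 and 0.16 with the combination.

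DNAH6, an inner arm heavy chain, was the dynein heavy chain that was called. It had log2 signals of 5.21, 3.89, 5.72 and 4.78 on the controls and 7.62, 6.35, 5.56 and 6.61 on the tamoxifen arrays, of which tamoxifen 3 overlapped the controls. It rose with tamoxifen by 1.63 (SE 0.42, adjusted p = 0.0186). With estradiol its values were 5.50, 6.24, 5.46 and 6.54 (change 1.04, SE 0.42, adjusted p = 0.0809), and with the combination 5.79, 6.16, 6.20 and 6.21 (change 1.19, SE 0.42, adjusted p = 0.0641). All 4 combination arrays lay above the controls, yet only the tamoxifen change passed; that call was lost without control 2 (adjusted p = 0.0505) or tamoxifen 1 (adjusted p = 0.0572). Another probe set of DNAH6 that was tested changed by 0.44 with tamoxifen and was not called (adjusted p = 0.309).

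The 5 dim heavy chains did not all follow the array pattern of DNAH5. DNAH9, the second outer arm heavy chain, read 4.76, 4.88, 3.42 and 4.42 on the controls and 5.40, 5.62, 5.08 and 5.39 on the combination arrays, with 5.99 on estradiol 2 and 5.91 on tamoxifen 1 as its highest values. DNAH3 and DNAH10, chosen after their values were seen and both inner arm chains, also had all 4 combination arrays above all controls. For DNAH10 this was a near tie, as combination 1 and control 3 both read 5.99. DNAH8, which had all 4 estradiol arrays above all controls, was at 2.89 on tamoxifen 1 and 5.06 on tamoxifen 2, and DNAH12 had its lowest tamoxifen value on tamoxifen 1 (4.48); in neither did the combination arrays clear the controls. DNAH10, which was tested, changed by 0.47 (SE 0.30, adjusted p = 0.312). The median change of the 10 DNAH genes was 0.26 with estradiol, 0.27 with tamoxifen and 0.61 with the combination. DNAH17, CFAP58 and RSPH14 had the lowest mean signals of the 70 genes; DNAH17 lay between 2.54 and 4.20 and CFAP58 between 2.69 and 3.56 on all arrays.

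Dynein intermediate chains, which anchor the heavy chains to the axoneme, had no call on the brightest probe sets, and 1 of the 4 genes differed from the rest in its order of arrays. DNAI1 had log2 signals of 5.03, 5.59, 5.31 and 6.10 on the controls, 5.12, 6.67, 5.44 and 4.87 with estradiol, 6.99, 5.74, 5.69 and 6.24 with tamoxifen, and 6.0, 6.41, 5.45 and 6.37 with the combination. Every treated arm overlapped the controls, and its largest change was 0.66 (SE 0.39, adjusted p = 0.277) with tamoxifen. DNAI2, a dim gene, read 4.71, 3.81, 4.11 and 5.34 on the controls and 5.76, 5.96, 5.71 and 6.33 on the combination arrays, which did not overlap. DNAI2 again peaked on tamoxifen 1 (6.80) and estradiol 2 (6.61). DNAI7 went another way on its brightest probe set, with tamoxifen 1 the lowest of its arm (5.90), estradiol 3 the highest of its arm (6.33) and a change of -0.36 (SE 0.25, adjusted p = 0.352) with the combination. Its second probe set read 4.73, 4.55, 5.43 and 5.15 on the controls, 6.97, 5.72, 5.66 and 6.38 with tamoxifen and 5.82, 6.60, 5.80 and 6.0 with the combination, without overlap. On that probe set DNAI7 rose by 1.22 with tamoxifen (SE 0.34, adjusted p = 0.0277) and by 1.09 with the combination (SE 0.34, adjusted p = 0.0401), so its direction depends on the probe set. The median change of the 4 DNAI genes, by brightest probe set, was 0.23, 0.68 and 0.69 with estradiol, tamoxifen and the combination.

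Among radial spoke genes, RSPH1, a spoke head protein and a common marker of multiciliated cells, shared the high arrays of DNAH5. Its log2 signal was 6.96, 6.19, 6.98 and 7.24 on the controls and 5.72, 8.54, 5.91 and 6.23 on the estradiol arrays. It was 9.14, 6.95, 6.85 and 7.84 on the tamoxifen arrays and 7.60, 8.14, 7.55 and 7.65 on the combination arrays. Apart from estradiol 2, the estradiol arrays lay within or below the range of the controls, whereas the combination arrays stood close together and above them. The changes were -0.24 (SE 0.56, adjusted p = 0.797), 0.86 (SE 0.56, adjusted p = 0.333) and 0.90 (SE 0.56, adjusted p = 0.297) with estradiol, tamoxifen and the combination. The spoke head genes RSPH9 and RSPH4A moved less: RSPH9, which was tested, differed by -0.46 (SE 0.18, adjusted p = 0.0805) with estradiol and by -0.07 with the combination, and the dim RSPH4A by 0.27 and 0.31. The dim RSPH6A, a paralog of RSPH4A, had a residual SD of 0.942 against 0.884 for RSPH1 and, like it, was highest on tamoxifen 1 (5.93). Its combination arrays read 4.73, 2.83, 5.27 and 3.06 and spanned the controls (3.42 to 4.70), and it differed by 0.75 with estradiol and -0.02 with the combination. The dim RSPH14 read 2.52 to 3.26 on all arrays but estradiol 2, where it was 4.19.

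TEKT1, a tektin that forms filaments inside the doublet microtubules, stood close together in the combination arm and far apart in the others. It read 5.31, 4.17, 6.05 and 6.40 on the controls and 5.11, 7.86, 5.54 and 5.50 on the estradiol arrays. On the tamoxifen arrays it read 8.39, 6.15, 5.69 and 7.52, and on the combination arrays 7.22, 7.42, 7.09 and 7.38. The arm means were 5.48 ± 0.98, 6.0 ± 1.25, 6.94 ± 1.24 and 7.28 ± 0.15 (SD, n = 4 each). The combination arrays all exceeded the controls, and the change of 1.80 (SE 0.64) had adjusted p = 0.0688; with tamoxifen it was 1.46 (adjusted p = 0.144) and with estradiol 0.52 (adjusted p = 0.598). All 3 TEKT genes had their highest value of the estradiol arm on estradiol 2 and of the tamoxifen arm on tamoxifen 1.

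**Figure D3:**
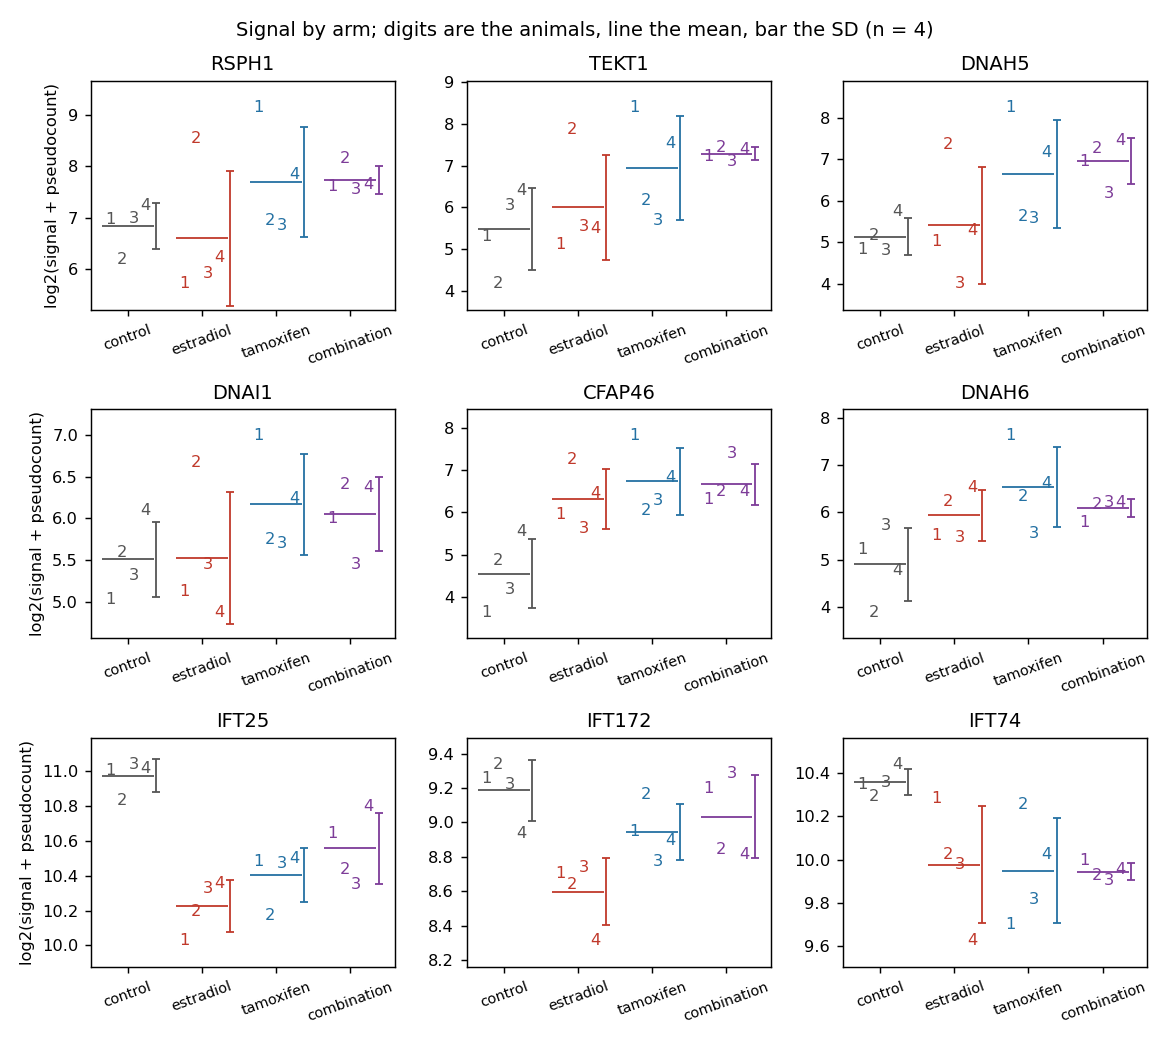
Log2 signal of 9 cilium genes by arm, each panel with its own vertical scale; digits are the animals' label numbers, horizontal lines the arm means and bars the SD (n = 4 per arm). For RSPH1, TEKT1 and DNAH5 the digit 1 is highest in the tamoxifen arm and the digit 2 in the estradiol arm. The 4 combination animals lie together for RSPH1 and TEKT1 and less so for DNAH5 (SD 0.561 against 0.439 in the controls). CFAP46 is above control in every treated animal, and IFT25 is below control in every treated animal.

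Among the CFAP genes, CFAP46, a part of the central apparatus, rose in all 3 treated arms. Its log2 signal was 3.64, 4.85, 4.17 and 5.54 on the controls and 5.96, 7.26, 5.62 and 6.44 with estradiol. It was 7.81, 6.03, 6.27 and 6.82 with tamoxifen and 6.31, 6.48, 7.38 and 6.49 with the combination. All 12 treated animals lay above all 4 controls. The rise was 1.77 (SE 0.46, adjusted p = 0.0111), 2.19 (SE 0.46, adjusted p = 0.00714) and 2.12 (SE 0.46, adjusted p = 0.00700) in that order, 3.41-fold, 4.55-fold and 4.34-fold on this scale. The 3 comparisons share the same control arrays. CFAP46 kept all 3 calls in the 16 fits that left out 1 array each, and its changes between treated arms were at most 0.42 (95% interval -0.56 to 1.39, tamoxifen against estradiol).

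CFAP90 and CFAP107, proteins bound inside the doublet microtubules, were called with the combination alone among the 3 comparisons with control. CFAP90 read 4.91, 4.91, 4.95 and 5.19 on the controls and 6.23, 6.56, 6.07 and 7.03 on the combination arrays, a rise of 1.48 (SE 0.44, adjusted p = 0.0337). With estradiol it read 5.12, 6.39, 4.82 and 6.43 (change 0.70, adjusted p = 0.269), and with tamoxifen 7.16, 5.14, 5.26 and 6.54 (change 1.04, adjusted p = 0.133). Both single-drug arms held 2 animals near the controls and 2 above them. CFAP107 rose by 1.02 with the combination (SE 0.33, adjusted p = 0.0458); its values there were 6.15, 5.95, 5.67 and 6.51, against 5.65, 4.77, 4.38 and 5.41 on the controls. Neither gene differed between the combination and a single drug by a test that passed.

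Other CFAP genes were called with estradiol. CFAP210, another protein of the microtubule lumen, read 7.16, 7.65, 7.08 and 7.23 on the controls and 8.44, 8.19, 7.78 and 8.02 with estradiol, and rose by 0.83 (SE 0.25, adjusted p = 0.0260). Its change was 0.22 (adjusted p = 0.608) with tamoxifen and 0.70 (SE 0.25, adjusted p = 0.0714) with the combination. CFAP69, a central apparatus protein, fell with estradiol by 0.57 (SE 0.19, adjusted p = 0.0362), from 8.67, 8.11, 8.60 and 8.53 to 7.44, 8.16, 8.07 and 7.94, and the arms overlapped through control 2 and estradiol 2. A second probe set of CFAP69 changed by -0.20 with estradiol (adjusted p = 0.604). CFAP69 also gave the smallest p of the combination against estradiol, at 0.79 higher (SE 0.19, adjusted p = 0.0545) with no overlap, which did not pass.

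The proteins of the doublet lumen CFAP52 and CFAP53, whose loss is known to disturb left-right patterning, had no call. CFAP52 read 4.95, 5.35, 4.80 and 5.12 on the controls and 5.80, 5.70, 5.68 and 5.52 with the combination, a change of 0.62 (SE 0.39, adjusted p = 0.295). Its highest values were 6.96 on tamoxifen 1 and 6.77 on estradiol 4. The dim CFAP53 differed by 0.62 with the combination, and CFAP20, the brightest CFAP gene by mean signal and a protein that joins the 2 tubules of a doublet, by -0.03 (SE 0.12, adjusted p = 0.900).

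CFAP126 and CFAP161, proteins of the doublet lumen that were chosen after their values were seen, differed widely within the single-drug arms. CFAP126, a dim gene, read 4.60, 3.35, 3.99 and 4.05 on the controls, 3.28, 7.50, 2.89 and 5.52 with estradiol, 7.84, 4.72, 5.78 and 6.64 with tamoxifen, and 6.12, 6.63, 5.70 and 6.99 with the combination. All tamoxifen and combination animals lay above all controls, and 2 of 4 estradiol animals lay below them. CFAP161 read 4.23, 5.30, 4.95 and 6.12 on the controls and 5.21, 7.64, 3.72 and 6.10 with estradiol; with tamoxifen it read 8.30, 5.42, 5.43 and 7.27, and with the combination 6.60, 7.53, 7.02 and 6.78. Its change with the combination was 1.83 (SE 0.74, adjusted p = 0.106).

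The IFT genes differed from the rest in part: all 14 were bright enough to test, and on their brightest probe sets their changes were small and went both ways. Their control, estradiol and combination arms were tight (median SD 0.130, 0.188 and 0.131). The tamoxifen arm was wider, at 0.261 against 0.219 for all kept genes. Tamoxifen 1 was the highest of that arm for 7 of the 14 (50%, against 34.0% of all genes). IFT25, which pairs with IFT27 in the IFT-B complex, fell in every treated arm. Its log2 signal was 11.01, 10.83, 11.04 and 11.02 on the controls, 10.03, 10.20, 10.33 and 10.35 with estradiol, 10.48, 10.17, 10.47 and 10.50 with tamoxifen, and 10.64, 10.43, 10.35 and 10.80 with the combination. No treated animal reached the lowest control. IFT25 fell by 0.75 with estradiol (SE 0.11, adjusted p = 0.000359), by 0.57 with tamoxifen (SE 0.11, adjusted p = 0.00498) and by 0.42 with the combination (SE 0.11, adjusted p = 0.0213). A second probe set of IFT25 fell with estradiol by 0.71 (adjusted p = 0.0408) and with tamoxifen by 0.78 (adjusted p = 0.0444), and was 0.39 lower with the combination without passing (adjusted p = 0.297). The combination call was lost without control 1 (adjusted p = 0.0504), control 3 (adjusted p = 0.0511), combination 2 (adjusted p = 0.0636) or combination 3 (adjusted p = 0.0679).

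IFT172, a large IFT-B subunit, was called against control in the estradiol arm and in neither other arm. It read 9.26, 9.34, 9.22 and 8.93 on the controls and 8.70, 8.64, 8.74 and 8.32 with estradiol, with no overlap, a fall of 0.59 (SE 0.14, adjusted p = 0.00706). With tamoxifen it read 8.95, 9.16, 8.77 and 8.89 (change -0.24, adjusted p = 0.273), and with the combination 9.20, 8.84, 9.29 and 8.81 (change -0.15, adjusted p = 0.501). IFT74 and IFT20, also of IFT-B, had smaller called changes. IFT74 fell by 0.38 with estradiol (adjusted p = 0.0425), 0.41 with tamoxifen (adjusted p = 0.0490) and 0.41 with the combination (adjusted p = 0.0425), from 10.29 to 10.44 on the controls to between 9.63 and 10.28 on the treated arrays. IFT20 fell by 0.27 with estradiol (SE 0.086, adjusted p = 0.0320) and differed by -0.23 with the combination (adjusted p = 0.0768), both without overlap. With 1 array left out, IFT74 kept its calls in 4, 3 and 6 of the 16 fits with estradiol, tamoxifen and the combination, and adjusted p reached 0.130 (without estradiol 4), 0.140 (without tamoxifen 1) and 0.0919 (without control 4).

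Other IFT genes moved upward. IFT27, the partner of IFT25, was called higher in all 3 comparisons, by 0.49 with estradiol (SE 0.17, adjusted p = 0.0475), 0.81 with tamoxifen (SE 0.17, adjusted p = 0.00766) and 0.61 with the combination (SE 0.17, adjusted p = 0.0263). Its other probe set differed the opposite way, by -0.58 (adjusted p = 0.142), -0.22 (adjusted p = 0.648) and -0.37 (adjusted p = 0.400), so the direction of IFT27 depends on the probe set. IFT56 rose with estradiol by 0.74 (SE 0.19, adjusted p = 0.00976), from 5.97, 6.32, 5.89 and 6.10 to 6.60, 6.74, 6.78 and 7.10; its 2 other probe sets differed by 0.65 and 0.31 and were not called. IFT43, of the IFT-A complex, rose with the combination by 0.38 (SE 0.11, adjusted p = 0.0372). IFT140, also of IFT-A, was 0.36 higher with estradiol without overlap and without passing (SE 0.16, adjusted p = 0.122). IFT88, an IFT-B subunit needed for cilium assembly, read 7.96 to 8.77 on the controls and 7.76 to 8.40 with the combination, and its changes were at most 0.52 in size (SE 0.22, adjusted p = 0.129, lower with tamoxifen).

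IFT46, another IFT-B subunit, gave different answers on its 2 probe sets. On the brightest it ranged from 9.16 to 9.76 over all arrays, and its changes against control were 0.02, 0.04 and 0.02 (SE 0.13 each; adjusted p = 0.933, 0.885 and 0.926). The other probe set read 4.20, 5.08, 4.87 and 4.89 on the controls, 8.48, 8.42, 6.44 and 7.88 with estradiol, 6.70, 7.07, 6.77 and 6.64 with tamoxifen, and 6.63, 6.39, 6.58 and 6.85 with the combination. All 12 treated animals lay above all controls there, with 3 of 4 estradiol animals above every other animal. On that probe set IFT46 rose by 3.04 with estradiol (SE 0.35, adjusted p = 6.15e-05), 2.03 with tamoxifen (SE 0.35, adjusted p = 0.00220) and 1.85 with the combination (SE 0.35, adjusted p = 0.00294), more than any IFT gene on its brightest probe set. Of 43 further probe sets of the 70 genes, 16 were tested and 3 were called in any comparison, those of IFT46, IFT25 and DNAI7. The untested ones were dim and could also differ from the brightest. For CFAP251, chosen after its values were seen, the dim probe set differed by 2.19 with the combination and the brightest by -0.25. None of the 43 enters the counts that follow. Which probe set reports IFT46 transcripts was not tested.

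With estradiol, 9 of the 46 cilium genes tested were called against control, 4 higher (CFAP46, CFAP210, IFT27, IFT56) and 5 lower (IFT25, IFT172, IFT20, IFT74, CFAP69). Over all 10706 genes tested the share called was 29.7%. Without the filter, 5 of the 70 were called, where 20.2% of all 14132 genes were. The arrays of the arms did not overlap for 7 of the 70 genes on the higher side (all genes: 12.7%) and 5 on the lower side (all genes: 10.7%), and all 5 of the latter were IFT genes. The median change was 0.20 over the 70 genes and 0.0055 over all genes, and 41 of the 56 genes outside the IFT family had a change above 0. The share of calls over the 46 was thus below that of all genes, but it differed by family. Called were 6 of the 14 IFT genes and 3 of the 32 others tested, a division made after the values were seen. The count over the 46 was 4 without control 1, 5 without control 4 and 5 without estradiol 1. The share over all genes was not counted in these fits. CFAP46, IFT172, IFT25 and IFT56 kept their calls in all 16 fits that left out 1 array. CFAP210 and CFAP69 kept theirs in 11, IFT20 in 12 and IFT27 in 4, with adjusted p up to 0.0804, 0.120 and 0.0934 (each without estradiol 1) and 0.148 (without estradiol 2).

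With tamoxifen, 5 of the 46 were called, CFAP46, DNAH6 and IFT27 higher and IFT25 and IFT74 lower, beside 16.2% of all genes tested. These were 3 of the 14 IFT genes and 2 of the 32 others tested. Without the filter the count was 4 of 70 (all genes: 10%). For 5 genes all tamoxifen animals lay above all controls (all genes: 9.06%), and for 2 below (all genes: 9.84%). The median change was 0.21 over the 70 genes, -0.026 over all genes and 0.23 over the 56 genes outside the IFT family, of which 43 had a change above 0. The count fell to 3 without control 2, and the share over all genes was not counted in that fit.

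With the combination, 7 of the 46 were called, 5 higher (CFAP46, CFAP90, CFAP107, IFT27, IFT43) and 2 lower (IFT25, IFT74), beside 19.7% of all genes tested. These were 4 of the 14 IFT genes and 3 of the 32 others tested. Without the filter 3 of the 70 were called (all genes: 12.4%). Yet for 24 of the 70 genes every combination animal lay above every control, where this held for 12.3% of all genes, and 22 of these 24 were outside the IFT family. They took in 13 CFAP genes, 5 DNAH genes (DNAH10 by a near tie), 2 DNAI genes, RSPH1 and TEKT1, beside IFT43 and IFT56. For 4 genes (CFAP97, IFT20, IFT25, IFT74) every combination animal lay below every control (all genes: 11.6%). The median change was 0.31 over the 70 genes, 0.47 over the 56 genes outside the IFT family and -0.0047 over the IFT genes, against -0.027 over all genes.

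How many of the 46 genes tested were called with the combination changed with the arms and arrays in the fit. These counts are not of the separated genes alone. CFAP210 and IFT27, called higher in both fits given next, overlapped the controls, and the separated genes that were dim were not tested. The fit shares 1 estimate of spread per gene over all 4 arms, and the estradiol and tamoxifen arms were the wide ones. Leaving out arms also left fewer arrays in the fit, and the part of the spread in the counts was not tested. With only the control and combination arms in the fit, 16 of the 46 were called, 14 higher and 2 lower, while the share over all genes tested was 21.9%. CFAP90, DNAH5 (adjusted p = 0.00447), CFAP161 (adjusted p = 0.00975), TEKT1 (adjusted p = 0.0163), CFAP100 (adjusted p = 0.0177) and RSPH1 (adjusted p = 0.0294) were among the 14. Without tamoxifen 1 alone, the 4-arm fit called 12, 10 higher and 2 lower, and 21.0% of all genes. The count was 2, 2, 4 and 3 without controls 1 to 4 in turn and 2, 1, 4 and 2 without combination 1 to 4. CFAP46 was the gene called in every such fit. The share over all genes was not counted in the fits without a control or combination array. CFAP90, CFAP107 and IFT43 each kept their call in 9 of the 16 fits and IFT27 in 10, with adjusted p up to 0.0892 (without combination 4), 0.127 (without control 3), 0.0955 (without combination 3) and 0.0766 (without combination 1).

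**Figure D4:**
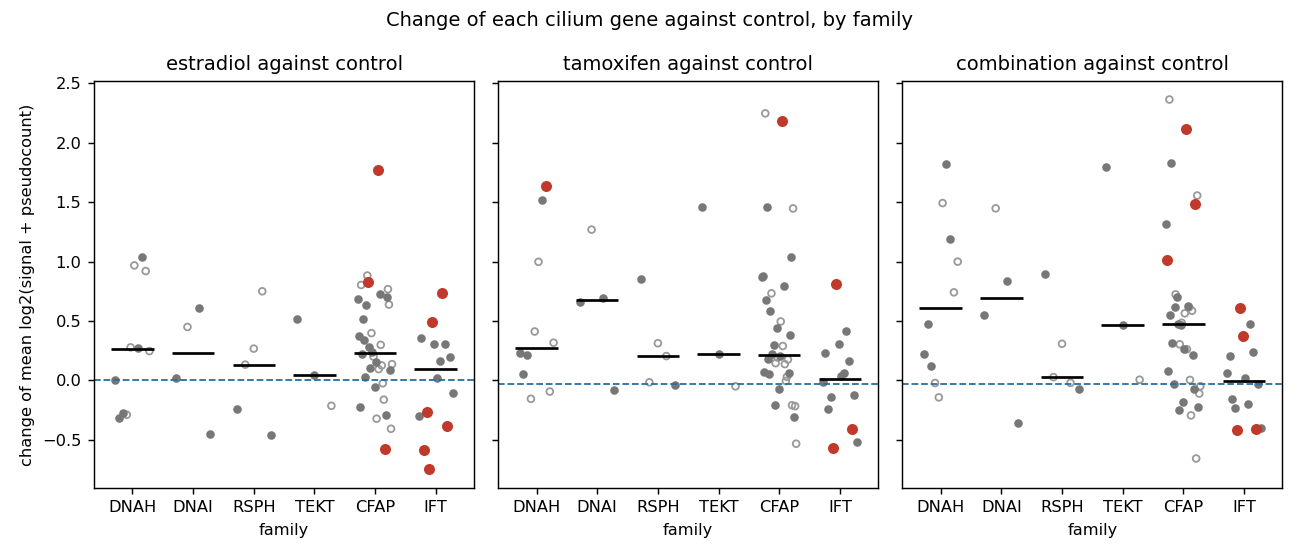
Change of mean log2 signal against control for each of the 70 cilium genes, by family, with estradiol, tamoxifen and the combination in 3 panels; red points passed the threshold, filled grey points were tested and did not, open points were dim and untested, black bars are family medians and the blue dashed line is the median over all genes. DNAH, DNAI, TEKT and CFAP points lie mostly above the dashed line with the combination (family medians 0.61, 0.69, 0.47 and 0.47), and the IFT points lie on both sides of it.

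Setting the combination against each single drug gave no called cilium gene. Against estradiol, 0 of 46 passed limma's test, where 1.33% of all genes were called. An unadjusted limma p under 0.05 was reached by 9 of the 46 and by 1913 of all 10706 genes tested. CFAP69 (0.79, adjusted p = 0.0545), IFT172 (0.44, SE 0.14, adjusted p = 0.136) and IFT122 (0.36, SE 0.11, adjusted p = 0.118) were higher with the combination than with estradiol on every array. They were the 3 of the 70 genes for which this held, and another 3 were lower on every array. Of all 14132 genes, 479 were higher and 810 lower in this way. The intervals for the genes that varied between animals were wide: TEKT1 differed by 1.28 (95% interval -0.08 to 2.64) and DNAH5 by 1.55 (95% interval 0.17 to 2.92, adjusted p = 0.254). Against tamoxifen, 0 of 46 passed in limma, and 0% of all genes were called. At an unadjusted p under 0.05 stood 0 of the 46 and 396 of the 10706 genes. There TEKT1 differed by 0.34 (95% interval -1.02 to 1.70) and RSPH1 by 0.04 (95% interval -1.15 to 1.23). The arms' 4 arrays overlapped for all 70 genes, as they did for all but 174 (combination higher) and 229 (combination lower) of the 14132 genes. Tamoxifen against estradiol called 0 of 46 in limma, beside 0.710% of all genes. At an unadjusted p under 0.05 stood 8 of the 46 and 1560 of the 10706 genes. CFAP69, 0.64 higher with tamoxifen (SE 0.19, adjusted p = 0.154), had the smallest p.

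Whether estradiol acted differently in the presence of tamoxifen was tested as the interaction, the combination minus tamoxifen change less the estradiol minus control change. It called 2 of the 46 genes, both IFT-B genes, beside 11.3% of all genes. For IFT25 the interaction was 0.90 (SE 0.16, adjusted p = 0.00482): it fell with estradiol in the absence of tamoxifen, and with tamoxifen the combination arm stood 0.15 above the tamoxifen arm (95% interval -0.09 to 0.39). The second IFT25 probe set gave 1.10 (adjusted p = 0.0533). The second probe set of IFT46 had an interaction of the opposite sign, -3.22 (SE 0.49, adjusted p = 0.00259), where its brightest had -0.03 (SE 0.18, adjusted p = 0.937). For IFT172 the interaction was 0.68 (SE 0.20, adjusted p = 0.0438), and this call was kept in 5 of the 16 fits that left out 1 array, with adjusted p up to 0.0908 (without combination 3). No gene outside the IFT family passed, among them TEKT1 at -0.18 (95% interval -2.10 to 1.75).

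Other cilium genes were taken from lists made from textbook knowledge. Of all 10706 genes tested, 1766, 920 and 1138 were called higher with estradiol, tamoxifen and the combination. In the same order, 1410, 818 and 973 were called lower. Of 12 regulators of multiciliated cell fate, 9 had a single-symbol probe set and 6 were tested; 2, 1 and 1 were called higher with estradiol, tamoxifen and the combination, and none lower. MYB, a transcription factor active early in multiciliated differentiation and in dividing cells, rose by 1.92 (adjusted p = 0.000605), 2.52 (adjusted p = 0.000363) and 2.38 (adjusted p = 0.000343). E2F5, a partner of the regulators that amplify centrioles, rose with estradiol by 0.59 (adjusted p = 0.0120) and was 0.36 and 0.42 higher with tamoxifen and the combination without passing. E2F4, a factor of the same kind, differed by -0.35, -0.40 and -0.58 and CCNO, a cyclin needed to make many centrioles, by 0.34, 0.81 and 0.71, with no call. FOXJ1, the regulator that switches on motile cilium genes, did not pass, at -0.0082 (adjusted p = 0.993), 0.32 (adjusted p = 0.679) and 0.52 (adjusted p = 0.467). FOXJ1 read 6.01, 5.58, 5.18 and 6.08 on the controls, 5.38, 6.96, 5.04 and 5.43 with estradiol, 7.44, 5.31, 5.52 and 5.88 with tamoxifen, and 6.21, 5.90, 6.24 and 6.57 with the combination. Its highest estradiol and tamoxifen arrays were estradiol 2 and tamoxifen 1, as for RSPH1 and TEKT1.

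Of 35 further axoneme and dynein assembly genes on the array, 23 were tested: 2 were called higher with estradiol, 1 higher and 1 lower with tamoxifen, and 1 higher with the combination. Of all 10706 genes tested, 1766, 920 and 1138 were called higher and 1410, 818 and 973 lower in these comparisons. The median changes of the 35 genes were 0.042, 0.24 and 0.32. AK8, an adenylate kinase of cilia, was called higher each time, by 0.99 (adjusted p = 0.0376), 1.37 (adjusted p = 0.0136) and 1.20 (adjusted p = 0.0226). IQUB rose with estradiol by 0.74 (adjusted p = 0.0159), and NME5, a protein of the spokes, fell with tamoxifen by 0.62 (adjusted p = 0.0483). DRC1, of the nexin-dynein regulatory complex, was 2.14 and 2.17 higher with tamoxifen and the combination (SE 0.80; adjusted p = 0.0880 and 0.0773), and ODAD1, of the outer arm docking complex, differed by -0.39 with the combination (adjusted p = 0.0522); neither passed.

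Of 21 further genes of intraflagellar transport, its motors and the BBSome, 20 were tested, and 5, 3 and 2 were called lower and 1, 0 and 0 higher in the 3 comparisons. Of all 10706 genes tested, 1410, 818 and 973 were called lower and 1766, 920 and 1138 higher. The median changes of the 21 genes were -0.26, -0.27 and -0.24. KIFAP3, the adaptor of the kinesin-2 motor that drives outward transport, fell in all 3, by 0.72 (adjusted p = 0.000261), 0.47 (adjusted p = 0.00935) and 0.37 (adjusted p = 0.0253). KIF3A, a motor subunit that KIFAP3 binds, fell with estradiol by 0.51 (adjusted p = 0.0309) and with the combination by 0.84 (adjusted p = 0.00350). The IFT-A gene WDR35 fell by 0.73 (adjusted p = 0.0141) and 0.71 (adjusted p = 0.0287), and the BBSome gene BBS7 by 0.41 (adjusted p = 0.0319) and 0.49 (adjusted p = 0.0237), with estradiol and tamoxifen. BBS4, also of the BBSome, fell with estradiol by 0.68 (adjusted p = 0.0227). ARL6, which recruits the BBSome to membranes, rose with estradiol by 0.60 (adjusted p = 0.00992).

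Markers of several cell types differed from control in the same comparisons. Their counts stand beside 1766, 920 and 1138 of all 10706 genes tested called higher with estradiol, tamoxifen and the combination. Of 12 other ciliated cell markers on the array, 7 were tested and 1, AGR3, was called in each comparison, 2.07, 1.94 and 1.97 higher (adjusted p = 0.000410, 0.00181 and 0.00122). The summed signal of the 12 ran from 897 to 1046 on the controls, 1739 to 3734 with estradiol, 1363 to 5113 with tamoxifen and 2491 to 2831 with the combination. Without AGR3 the other 11 summed to between 557 and 711, 564 and 1752, 609 and 2426, and 986 and 1520 in the 4 arms. The estradiol and tamoxifen arms then overlapped the controls and the combination arm did not. None of the 12 was at 0 on any array, and SNTN, STOML3, LRRIQ1, CCDC78 and HOATZ were dim.

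For the counts in the other cell types, 1766, 920 and 1138 of all 10706 genes tested were called higher, and 1410, 818 and 973 lower. Of 13 epithelial markers, 11 were tested, and 6, 4 and 6 were called higher with estradiol, tamoxifen and the combination, and none lower. Their summed signal ran from 5503 to 5951, 7564 to 13125, 7102 to 13905 and 7956 to 10305 in the 4 arms. Of 9 secretory epithelium markers tested, 6 were called higher in each comparison, and of 11 stromal fibroblast markers 8, 6 and 6 were. Of 11 endothelial markers, 7, 1 and 1 were called lower, and of 7 leukocyte markers 0, 2 and 3. Cell division genes were called higher with estradiol (7 of 8) and in neither other comparison. The 10 smooth muscle markers had median changes of -0.73, -0.02 and 0.16. Of 3 mesothelial markers tested, MSLN was called higher with the combination, and of 2 neuronal markers tested, SYT1 was called higher in each comparison.

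The epithelial markers and the 56 cilium genes did not always stand together on single arrays. The median deviation of the epithelial markers was 1.01 on tamoxifen 1 and 0.34 on estradiol 2, where the cilium genes stood at 0.66 and 0.39. On estradiol 4 it was 0.85, its highest value of that arm, where the cilium genes stood at 0.07, and on tamoxifen 3 it was 0.40 where they stood at -0.17. On tamoxifen 4 it was -0.16 against 0.25 for the cilium genes. The ciliated cell markers were at 1.33 on tamoxifen 1, 0.89 on estradiol 2 and 0.54 on tamoxifen 4, and at 0.14, 0.58, 0.27 and 0.42 on combination 1 to 4, where combination 2 led for these markers and combination 4 for the cilium genes. They stood at -0.38 on estradiol 1, -0.57 on estradiol 3, -0.49 on tamoxifen 2 and -0.40 on tamoxifen 3, within or just below the range of the controls (-0.54 to 0.03). The part of cell content in the changes of the cilium genes was not tested.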

How the data were processed

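Total RNA of endometrium from 16 cynomolgus macaques, 4 per arm, had been hybridised to 1-colour Affymetrix arrays whose probe sets carry rhesus macaque names; loss of signal through sequence differences was not tested. The authors deposited 1 linear intensity per probe set and array, made with GCOS, Affymetrix Expression Console and MAS5, per the submitters' processing notes. As the trimmed mean was 250.0 on every array, they were not normalized again, and changes are relative to an array's total.

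Values were taken as log2(signal + 4.80), the pseudocount being the 10th percentile. The 40% of probe sets with the lowest means were left out, and 1 mean per arm was fitted over 16 arrays with limma 3.58.1 in R 4.3.3 (eBayes with a trend, 12 residual degrees of freedom, 7 comparisons, Benjamini-Hochberg adjustment over 31660 probe sets). The fit was tested on simulated data. P-values measure the spread between animals. No 2 arrays held identical values. The labels' numbers are not known to pair animals. Of 24 same-number pairs of arrays, 0 had residuals correlated over 0.1 (range -0.27 to 0.095), which by itself cannot exclude a shared block.

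Symbols came from the platform annotation, in which 24956 probe sets have a single symbol, 361 have more and 27449 have no symbol; all 70 cilium symbols are also in RefSeq's gene table for this species. The members and all lists were chosen with earlier results of these data known. Genes named were the called members of each comparison (at most 6 in each direction), the 3 smallest p where fewer than 3 passed, a set of well known cilium genes (DNAH5, DNAH9, DNAI1, DNAI2, RSPH1, RSPH4A, RSPH9, TEKT1, CFAP52, CFAP53, IFT88, IFT140 and IFT172), those with the highest and lowest mean signal, and the 3 smallest p of each other cilium list; others were chosen after their values were seen. Alternatives changed the pseudocount, filter, normalization, variance model, arms in the fit, probe set rule, block and arrays. Promoter sequences were not analysed here.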

Additional observations from a re-analysis of the deposited data

Results flagged for a closer look

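The following 2 kinds of result stood out. An array far from the other 3 of its arm was looked for in 35 named genes, 140 groups of 4 in all, and found in 10; chance alone gives about 1 in 20. TEKT1 on estradiol 2 was 7.86 where the next highest estradiol array was 5.54, and RSPH14 on the same array was 4.19 against 2.71. CFAP46 on combination 3 was 7.38 against 6.49. AGR3 was 11.3 on estradiol 4 against 10.4, and 8.95 on control 3 against 8.38. CFAP90 was 5.19 on control 4 against 4.95. The lowest values of their arms stood apart for CFAP53 on control 2 (4.08, next 4.52), DNAH6 on combination 1 (5.79, next 6.16), IFT25 on control 2 (10.8, next 11) and IFT25 on tamoxifen 2 (10.2, next 10.5).

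The estradiol change differed with and without tamoxifen, by limma's interaction test, for IFT25 (0.902, adjusted p = 0.00482) and IFT172 (0.678, adjusted p = 0.0438). Their causes were not tested.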

How the results depend on the processing

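Calls are counts of the cilium genes tested, which were 46 unless stated. Except where given above, the share of all genes called under these alternatives was not counted. Shifts in the counts therefore cannot be set against shifts over all genes. Without the filter all 70 were tested, and estradiol, the combination and the interaction called 5, 3 and 1. With the lowest 60% of means left out, fewer than 46 were tested, and CFAP46, DNAH6, CFAP90, CFAP107 and IFT56 were not among them. Tamoxifen and the combination then called 3 and 4, which were their calls among the genes still tested. The combination against estradiol called 1 (CFAP69). With only the arms compared, the counts were 5, 3 and 16 for the 3 comparisons with control, in the same order (estradiol, tamoxifen, combination). The interaction called 1 without a variance trend and 4 with the median of a gene's probe sets. Without estradiol 4 and tamoxifen 1, the combination called 12 and the interaction 1. The causes of the other shifts in count were not tested. With the label numbers as a replicate block, estradiol, tamoxifen and the combination called 6, 4 and 4 and the interaction 2; the numbers are not known to pair animals. With 1 array left out, the counts ran from 4 to 10 for estradiol, 3 to 5 for tamoxifen, 1 to 12 for the combination, 0 to 1 for the combination against estradiol, 0 to 0 for the combination against tamoxifen and for tamoxifen against estradiol, and 1 to 3 for the interaction. IFT27 with estradiol turned to -0.046 (adjusted p = 0.889) with the median of its probe sets. Of 23 calls of a gene in a comparison, 9 held in every fit with 1 array left out and 8 under all the other alternatives that tested them. The 8 include the 3 calls of CFAP46, which was not tested with the lowest 60% of means left out. Dim signal limited 24 of the 70 genes to description.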
